A study of Homo sapiens with 18 samples.

Results

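The comparison set 3 mRNA-seq libraries of IMR90 fibroblasts treated with inflachromene (ICM) against 3 libraries of old IMR90 fibroblasts, and asked at the mRNA level what separates these growth-arrested states. The 6 libraries were taken by their titles and by the file type from the 18 libraries of the series, and 3 mRNA-seq libraries of young cells are given beside them for orientation. IMR90 is a line of human fetal lung fibroblasts with a limited number of divisions, and every group came from it. Young cells were low-passage and proliferating, old cells were high-passage and senescent from continued passaging, and ICM cells were low-passage cells kept with ICM. ICM is a small molecule that binds the nuclear proteins HMGB1 and HMGB2. The labels give neither the dose nor the duration of treatment for these libraries, and they do not say whether old cells received the solvent. The study's text gives 6 days of ICM for its Ribo-seq data, which it set against matching mRNA-seq. Old and ICM cells therefore differ in passage as well as in the compound, and a direct difference between them holds both. Young cells, low-passage and without ICM, are the reference that each can be set beside. The study's text says that its comparable data on passaged cells came from earlier work, whereas its methods describe 3 independently grown cultures of each state handled in the same way. If the former holds for these libraries, a difference of experiment cannot be told apart from the difference of state either.

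Cells that stop dividing for good repress the genes of DNA replication and mitosis, largely through the retinoblastoma proteins, which are kept active by inhibitors of cyclin-dependent kinases (CDK). Senescent fibroblasts are also known for secreted cytokines, proteases and matrix proteins, for loss of lamin B1 and for a large lysosomal compartment. A separate program, driven by the transcription factor NRF2, answers electrophiles and oxidants: its sensor KEAP1 normally marks NRF2 for degradation, and modified KEAP1 lets NRF2 raise enzymes of glutathione and NADPH synthesis, quinone and carbonyl reduction, and iron storage. Lung fibroblasts are further defined by collagens and, when activated, by the smooth-muscle actin cytoskeleton.

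The 6 libraries held between 9854153 and 14144455 reads in mRNAs, and values are given as CPM, the mRNA reads of a gene scaled to a library total common to all libraries. CPM is not corrected for transcript length, so levels are compared between libraries and not between genes. Wherever 3 values are listed they are those of replicates 1, 2 and 3. A value after log2 is the difference ICM minus old in log2 units, with its standard error (SE) after ± where given. The biological coefficient of variation, the relative spread between libraries of a group beyond counting, was 3.95% in ICM and 7.17% in old cells. The first principal component of the 9 libraries held 57.8% of the variance and the second 35.1%, and the 3 groups stood apart. Fibroblast markers were present in every library, although at a lower sum in ICM: the 10 markers added up to between 12290 and 12780 CPM in ICM and between 27380 and 30730 in old cells. VIM, which encodes vimentin, stood at 1625, 1689 and 1657 CPM in ICM and at 4201, 4155 and 4338 in old cells, and THY1, a surface protein of fibroblasts, at 576, 591 and 570.4 against 1319, 1326 and 1193. Of the 10 markers, 8 were called lower and only DCN, encoding the proteoglycan decorin, was called higher. Markers of leukocytes summed to at most 1.85 CPM and those of epithelium to at most 3.43 CPM in any of the 6 libraries. Endothelial markers summed to between 52.7 and 61.1 CPM in ICM and between 95.8 and 108 in old cells, nearly all of it TEK, at 48.4, 56.7 and 47.4 against 93.8, 105 and 106. VWF, the von Willebrand factor, went the other way at 3.01, 3.24 and 3.9 CPM against 0.753, 0.667 and 0.649, and CDH5, which defines endothelium, was at 0 in all of them. In bulk RNA, fewer cells of a kind and less of an RNA per cell cannot be told apart.

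Of 13173 genes tested with edgeR across all 9 libraries, 8338 (63.3%) differed between ICM and old cells at an adjusted p under 0.05. ICM was higher for 4049 (30.7%) and lower for 4289 (32.6%). These shares are the background for the counts of every list below. With so many calls the size of a difference carries more than the call: the median size over all tested genes was 0.35 on the log2 scale. A difference of over 2-fold was called for 963 genes higher (7.31%) and 1179 lower (8.95%) in ICM. Over 16-fold, 69 genes were higher and 109 lower. List members named in the text that fall outside the size rules of the methods were picked by role, after their values were seen.

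**Figure D1:**
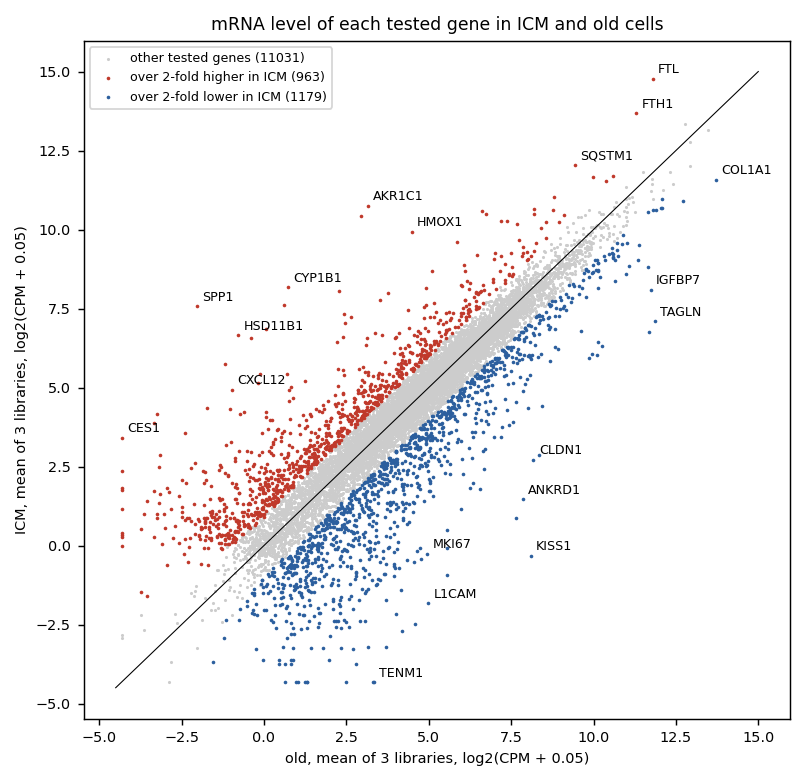
Mean mRNA level of each tested gene in old cells (x axis) and ICM cells (y axis), each the mean of 3 libraries as log2(CPM + 0.05); colours mark the 963 genes called over 2-fold higher and the 1179 called over 2-fold lower in ICM. FTL, AKR1C1 and SPP1 lie above the diagonal and COL1A1, TAGLN and KISS1 below it.

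SPP1, which encodes the secreted phosphoprotein osteopontin, had the largest fitted difference among the genes higher in ICM. It stood at 191, 196 and 186 CPM in ICM libraries and at 0.323, 0.0741 and 0.185 CPM in old libraries, a difference of log2 9.97 ± 0.17 (edgeR adjusted p = 2.1e-22). Young libraries held 0.62, 0.0872 and 0.286 CPM, so the old and young groups were both near 0. Of the 12 genes with the largest differences in that direction, 8 encode enzymes of steroid, carbonyl, ester or drug metabolism. CES1, a carboxylesterase, stood at 10.9, 11.5 and 9.5 CPM in ICM against no read in any old library, at least 118.9-fold higher against a floor of 3 reads over the group. CYP19A1, the aromatase that makes oestrogens, stood at 16.9, 19.6 and 17 CPM in ICM against 2 reads in all old libraries, a ratio of 298 with a 95% counting interval from 82.1 to 2464. HSD11B1, which regenerates cortisol from cortisone, stood at 100, 107 and 95.8 CPM against 0.645, 0.667 and 0.278, and CYP1B1, a monooxygenase of oestrogens and polycyclic hydrocarbons, at 291, 274 and 299 against 1.61, 1.33 and 1.85. CYP1B1 in young cells lay between them at 60.9, 56 and 64.2 CPM. AGTR1, the angiotensin receptor, stood at 15.5, 15.2 and 13.7 CPM against 2 reads in old cells (ratio 248, counting interval 68.4 to 2055). SLCO2B1, an organic anion transporter, stood at 49.5, 54.8 and 55.7 CPM against 0.323, 0.297 and 0.556.

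Among the genes lower in ICM, TENM1, a teneurin adhesion protein, stood at 10.1, 9.64 and 10.4 CPM in old cells with no read in ICM, at least 120.2-fold lower in ICM. PDGFB, the B chain of platelet-derived growth factor, stood at 8.82, 9.93 and 10.8 CPM in old cells and had no ICM read, at least 118.1-fold lower. FOXE1, a forkhead transcription factor, stood at 5.7, 4.52 and 6.3 CPM against no read in ICM, at least 65.9-fold lower. KISS1, the precursor of kisspeptin, stood at 305, 260.3 and 251 CPM in old and 0.751, 0.555 and 0.933 in ICM cells, a difference of log2 -8.48 ± 0.14 (edgeR adjusted p = 1.1e-22). Young cells held 6.95, 7.41 and 7.82 CPM of KISS1. NPPB, the precursor of B-type natriuretic peptide, stood at 22.8, 24.5 and 23.9 CPM in old cells against 0.3, 0 and 0.0848, and L1CAM, a neural adhesion molecule, at 33.9, 29.4 and 31.4 against 0.0751, 0.278 and 0.339. MXRA5, a matrix-remodelling protein, stood at 12.7, 12.4 and 13.9 CPM against 2 reads in ICM (ratio 233, counting interval 64.0 to 1927). For each of these 7 genes, all old libraries lay above all young and ICM libraries.

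The cell-cycle genes separated the states in degree. All 32 tested genes of a mitosis list were lower in ICM than in old cells, against a background of 32.6% of tested genes, and the list's median log2 difference was -3.63 where all tested genes had -0.01. MKI67, the proliferation antigen, stood at 1.13, 0.648 and 0.594 CPM in ICM, 31.4, 28.5 and 32.6 in old and 151, 155 and 152 in young cells (log2 -5.23 ± 0.16, edgeR adjusted p = 5e-18). KIF20A, a kinesin of cytokinesis, gave 0.3, 0.37 and 0.0848 CPM in ICM and 11.2, 13.2 and 14.4 in old cells, and PLK1, the polo-like kinase of mitotic entry, 0.526, 0.833 and 0.339 against 16.9, 15 and 19.7. Young cells held 82.4, 79.2 and 76.4 CPM of KIF20A and 74.3, 69.2 and 70.2 of PLK1, so for these 3 genes old libraries lay between the groups with no overlap. BUB3, a checkpoint protein that also acts outside mitosis, had the smallest difference of the list at log2 -0.32. Summed over the 32 genes, the level was between 158 and 172 CPM in ICM, 590 and 648 in old and 1979 and 2019 in young cells.

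DNA replication followed the same order with smaller steps. Of 35 listed genes, 32 were lower and none higher in ICM, with a median log2 difference of -1.26. RRM2, the inducible subunit of ribonucleotide reductase, stood at 3.31, 3.7 and 4.58 CPM in ICM and 74.2, 83.4 and 86.6 in old cells (log2 -4.40 ± 0.12, edgeR adjusted p = 5.7e-19). CDT1, a licensing factor of replication origins, differed by log2 -3.38 and TK1, the thymidine kinase of S phase, by log2 -3.31. PCNA, the sliding clamp of DNA polymerases, and DUT, which keeps uracil out of DNA, did not pass the test, with log2 -0.08 and log2 -0.16.

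Promoters of the mitosis list are shown because a short word, the CHR element TTTGAA to which the repressive DREAM complex binds, is known from mitotic genes. It was searched on both strands in the 250 bases before the RefSeq start of each gene (GRCh38.p14), and promoters were found for 26 of the 32 genes. The word occurred in 14 of these 26 promoters (53.8%), in 13.6% of all 27305 promoters of the table and in 1 of 31 promoters (3.23%) of the replication list. The E2F word TTTNNCGC, by contrast, occurred in 14 of 31 replication promoters (45.2%), in 2 of 26 mitosis promoters (7.69%) and in 5.93% of all promoters. CCAAT occurred in 20 of 26 mitosis promoters (76.9%) and in 33% of all promoters. Among the 10739 promoters of tested genes, CHR was in 8.73%, the E2F word in 9.09% and CCAAT in 35%. Promoters were found for 763 of the 963 genes over 2-fold higher in ICM and for 911 of the 1179 over 2-fold lower. Both are fewer than 80%, so no share is given for these sets. Whether the words separate the states was not tested. A match describes the letters of a window and not a bound site. Windows of 30 bases follow in the sense of the gene, 5′ to 3′, with the CHR word in capitals.
PLK1, chr16:23678848-23678877, plus strand: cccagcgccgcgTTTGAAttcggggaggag
CCNB2, chr15:59105105-59105134, plus strand: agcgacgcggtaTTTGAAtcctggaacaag
BUB1B, chr15:40161034-40161063, plus strand: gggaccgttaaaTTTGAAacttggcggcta
KIF23, chr15:69414282-69414311, plus strand: ctgattggcccgTTTGAAatgcgccaggcg
CDC20, chr1:43358904-43358933, plus strand: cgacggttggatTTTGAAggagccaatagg
MKI67, chr10:128126453-128126482, minus strand: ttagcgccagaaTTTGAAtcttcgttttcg
The capitals begin 29 bases before the start in PLK1 and CCNB2, 23 in BUB1B, 55 in KIF23, 65 in CDC20 and 47 in MKI67. The differences of these genes were log2 -4.91 for PLK1, log2 -1.78 for CCNB2, log2 -4.48 for BUB1B, log2 -1.32 for KIF23, log2 -4.83 for CDC20 and log2 -5.23 for MKI67.

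**Figure D2:**
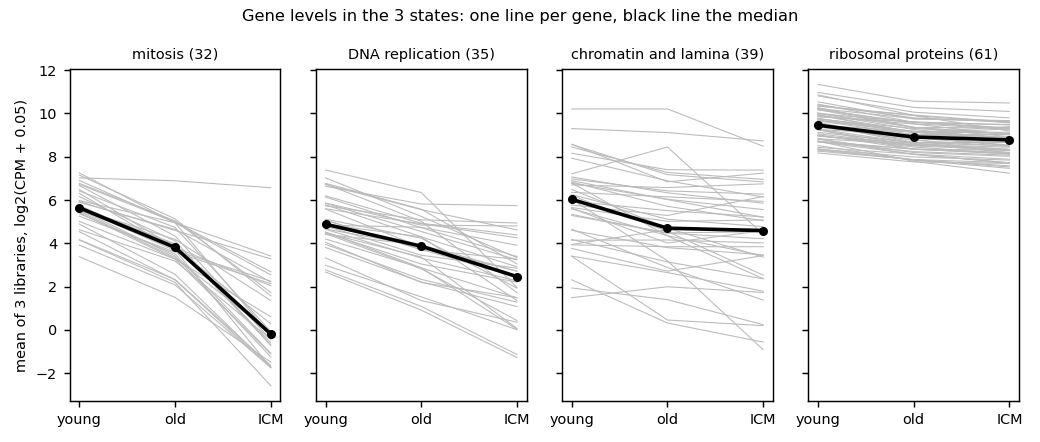
Mean level of each gene of the mitosis, DNA replication, chromatin and ribosomal protein lists in young, old and ICM cells, as log2(CPM + 0.05) of the mean of 3 libraries, with a line per gene and the median in black. The mitosis and replication lines descend from young through old to ICM, and the ribosomal protein lines differ little between old and ICM.

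Genes of G1 control and CDK inhibition did not move together: of 23, 14 were lower and 2 higher in ICM (median -0.84). CDKN1A, the inhibitor induced by p53, was higher in ICM at 3213, 3478 and 3255 CPM against 1569, 1481 and 1605 in old cells (log2 1.10 ± 0.06, edgeR adjusted p = 5.9e-13). CDKN2A and CDKN2B, the neighbouring inhibitors that accumulate with passage, were lower in ICM: CDKN2A stood at 38.6, 44.3 and 43.1 CPM against 74.7, 68.1 and 84.6 (log2 -0.85 ± 0.09), and CDKN2B at 38.6, 35.4 and 37.3 against 66.8, 64.5 and 69.8 (log2 -0.85 ± 0.07). CDKN2A in ICM cells was close to young cells, which held 43.9, 51.8 and 53 CPM. CDKN1B gave 23.4, 19.8 and 20.2 CPM in ICM and 18.5, 18.2 and 19.2 in old cells and did not pass the test (edgeR adjusted p = 0.082). Among the cyclins, CCND2 stood at 14.6, 14.3 and 13 CPM in ICM against 178, 186 and 158 in old cells (log2 -3.64 ± 0.08), and CCND1 was lower at log2 -1.30. CCND3 was higher by log2 0.61. E2F1, which drives entry into S phase, stood at 5.63, 5.74 and 4.32 CPM against 20.8, 19.8 and 21.1.

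Of 28 p53 target genes tested, 15 were higher (all tested genes 30.7%) and 9 lower in ICM, with a median of 0.27, so the lower share was that of the background of 32.6%. MDM2, which degrades p53, was higher by log2 0.85, the DNA-repair factor XPC by log2 1.22 and the growth-factor family member GDF15 by log2 0.77. PLK2, a polo-like kinase induced by p53, was higher by log2 1.10. PMAIP1, a pro-apoptotic member of the BCL2 family, was lower at log2 -1.19 and PLK3, another polo-like kinase, at log2 -0.75.

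Chromatin genes were mostly lower in ICM: 26 of 39 were lower and 5 higher, with a median of -0.34. LMNB1, lamin B1 of the nuclear lamina, stood at 0.751, 0.185 and 0.509 CPM in ICM, 10.2, 7.93 and 9.18 in old and 66.9, 59.2 and 70 in young cells (log2 -4.14 ± 0.26, edgeR adjusted p = 2.9e-12). HMGB2, a target of ICM, stood at 4.28, 5.83 and 5.26 CPM against 17.7, 22.2 and 21 in old cells (log2 -2.01 ± 0.13), while HMGB1, the other target, differed by only log2 -0.34 ± 0.06, at 114, 114 and 114 against 144, 150.4 and 138. HMGA2, a chromatin protein of fetal and proliferating cells, was in a different order, at 352, 339.9 and 357 CPM in old, 141, 137 and 166 in young and 23.6, 20.4 and 20.2 in ICM cells. CTCF, the insulator protein, stood at 17.5, 16.7 and 21.4 CPM against 23.5, 22.6 and 20.3, and the groups overlapped (log2 -0.26 ± 0.10, edgeR adjusted p = 0.026). The CTCF call was lost with DESeq2 (adjusted p = 0.053), with only the 6 ICM and old libraries (0.051) and with coding reads only (0.14). It was also lost without ICM replicate 1 (edgeR adjusted p = 0.11), ICM replicate 2 (0.13), old replicate 1 (0.093) or old replicate 2 (0.063).

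The NRF2 pathway gave the highest median of the 32 lists. Of 43 genes tested, 38 were higher and 4 lower in ICM, against 30.7% and 32.6% of all genes, with a median log2 difference of 1.71. HMOX1, haem oxygenase, was at 963, 1046 and 912 CPM in ICM and 22.5, 21.4 and 23.2 in old cells (log2 5.45 ± 0.08, edgeR adjusted p = 7.9e-23), and NQO1, a quinone reductase, at 1534, 1576 and 1546 against 94, 105 and 94.3 (log2 3.99 ± 0.07). Young cells held 31.5, 37.7 and 35.2 CPM of HMOX1 and 358, 328 and 358 of NQO1, so that old cells were below young for NQO1 and ICM cells far above both. OSGIN1, an oxidative-stress-induced growth inhibitor, differed by log2 4.26 and SRXN1, which repairs oxidised peroxiredoxins, by log2 2.91.

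The aldo-keto reductases AKR1C1 to AKR1C4 and AKR1B10, which reduce carbonyls, steroids and prostaglandins, had the largest differences of the pathway. AKR1C1 stood at 1710.1, 1771 and 1678 CPM in ICM and 7.31, 7.86 and 11.3 in old cells, a 195-fold difference (log2 7.60 ± 0.11, edgeR adjusted p = 4.1e-23). AKR1C2 differed by log2 7.50, AKR1C3 by log2 7.04, AKR1C4 by log2 7.02 and AKR1B10 by log2 6.82. The AKR1C genes are near-identical copies, and since the placing of shared reads is not given in the sources used here, each single AKR1C value is uncertain. AKR1C4 is not in the NRF2 list and entered by the size of its difference.

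Glutathione, thioredoxin and NADPH genes made up most of the rest. GCLM, the modifier subunit of the rate-limiting enzyme of glutathione synthesis, stood at 465, 446 and 491 CPM against 62.2, 68.1 and 71.2 (log2 2.80 ± 0.07), its catalytic partner GCLC differed by log2 1.43, and SLC7A11, which imports cystine, by log2 2.09. TXNRD1, thioredoxin reductase, stood at 3252, 3337 and 3199.6 CPM against 952, 1055 and 1026 and was among the 6 genes with the largest excess of CPM in ICM. Of the NADPH-producing enzymes, PGD differed by log2 3.09, IDH1 by log2 1.89 and ME1 by log2 1.48. GSS, the last enzyme of glutathione synthesis, gave 64, 69.3 and 68.4 CPM against 61.4, 62.9 and 61.9 and was the only tested member that did not pass (edgeR adjusted p = 0.13). The 4 members that were lower were PRDX6 at log2 -1.01, a peroxiredoxin, and the metal-binding metallothioneins MT2A at log2 -1.31, MT1X at log2 -1.35 and MT1E at log2 -0.93. MT2A stood at 519.8, 477 and 569 CPM in ICM, 1368, 1239 and 1284 in old and 567, 490.4 and 564 in young cells, and thus apart in old cells alone.

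Iron storage genes had the largest differences in CPM of all genes. FTL, the ferritin light chain, stood at 3585, 3672 and 3386 CPM in old and 27999, 30450 and 25939 in ICM cells (log2 2.99 ± 0.08, edgeR adjusted p = 4.8e-19), and FTH1, the heavy chain, at 2429.9, 2575 and 2494 and 13016, 14398 and 12052 (log2 2.40 ± 0.08). Both genes have many processed copies in the genome, and how reads with several matches were placed is not given in the sources used here. Together they summed to between 37990 and 44850 CPM in ICM libraries and to between 5881 and 6248 CPM in old libraries. SLC40A1, ferroportin, the only known iron exporter, stood at 266, 270.3 and 263 CPM in ICM and 4.52, 5.04 and 4.91 in old cells (log2 5.78 ± 0.09). HEPH, the ferroxidase that works with ferroportin, stood at 32.6, 38.9 and 33.7 CPM in ICM, 1.29, 0.667 and 0.556 in old and 37.1, 35.7 and 35.4 in young cells, so that here old cells stood apart. SLC40A1 and HEPH are in none of the lists and were chosen after their values were seen. NFE2L2, which encodes NRF2, differed by log2 0.67 and KEAP1 by log2 1.10. SQSTM1, an autophagy receptor that binds KEAP1, stood at 4166, 4394 and 4213 CPM against 705, 658 and 727 (log2 2.61 ± 0.07).

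**Figure D3:**
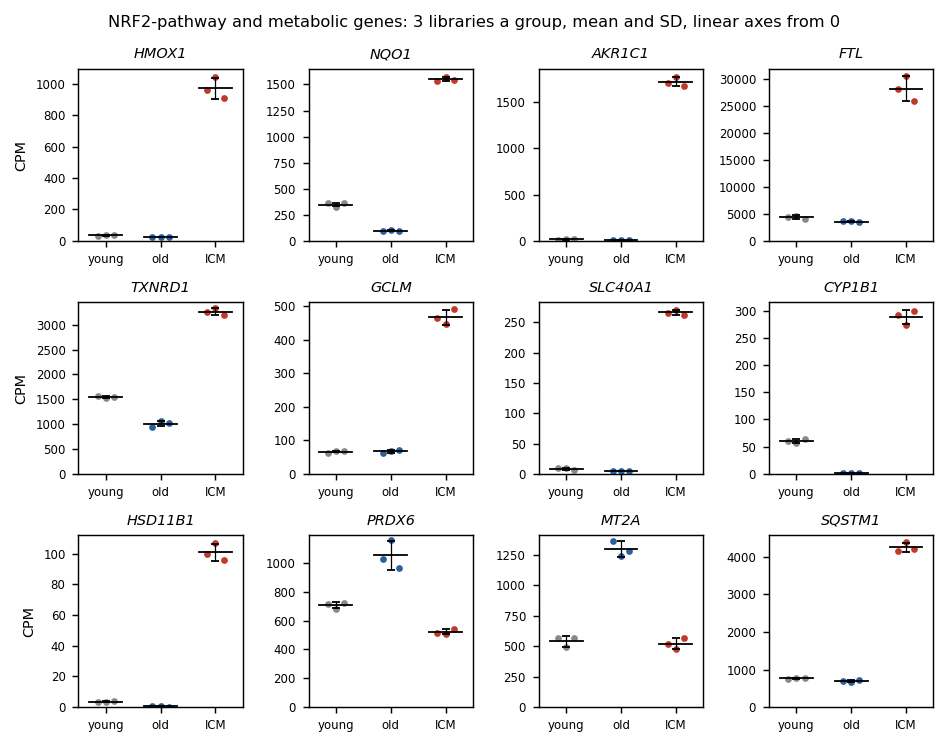
CPM of 12 genes of the NRF2 pathway and of iron, steroid and metal metabolism in young, old and ICM libraries, with a point per library, the mean of 3 as a line, SD as error bars and linear axes from 0. HMOX1, AKR1C1, FTL and SLC40A1 are high in ICM alone, whereas PRDX6 and MT2A are highest in old cells.

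Windows from promoters of this list are shown for the antioxidant response element, ARE, the word TGACNNNGC to which NRF2 binds with small MAF proteins. Only 31 of the 43 genes had a promoter in the table, fewer than 80%, so the share of the list is void and only the windows are given. The ARE word was in 11% of all 27305 promoters. It appears on either strand, in capitals, in these windows of 30 bases (GRCh38.p14, RefSeq).
TXNRD1, chr12:104215670-104215699, plus strand: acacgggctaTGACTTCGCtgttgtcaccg
GCLM, chr1:93909445-93909474, minus strand: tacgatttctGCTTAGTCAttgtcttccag
ME1, chr6:83431169-83431198, minus strand: tctcctgccaTGACTCAGCgcttctcgcag
PGD, chr1:10398853-10398882, plus strand: cctcgccgggGCAATGTCAtctaggtgctc
MT2A, chr16:56608470-56608499, plus strand: gagccgcaagTGACTCAGCgcggggcgtgt
The ME1 and MT2A words also hold the AP-1 word TGACTCA, so that these words are not told apart there. TXNRD1, GCLM, ME1 and PGD were higher in ICM by log2 1.69, log2 2.80, log2 1.48 and log2 3.09, and MT2A, whose ARE word is the same as that of ME1, was lower at log2 -1.31.

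Drug and hormone metabolism and lipid signalling were unequal. Of 29 tested genes of xenobiotic metabolism, 13 were higher and 6 lower, with a median of 0.70, or 0.16 with genes that had no read in a group set at their bound. ABCG2, an efflux pump, stood higher by log2 2.74 and MAOA, a monoamine oxidase, by log2 4.19. ABCB1, another efflux pump, was lower at log2 -3.10. AHR, the receptor that induces CYP1B1, was higher by log2 1.63, while its target TIPARP did not pass the test (log2 -0.09). In the prostaglandin list 13 of 20 genes were higher and 4 lower (median 0.60). PTGR1, a prostaglandin reductase, stood at 1416, 1477 and 1403 CPM against 103, 115 and 101 (log2 3.75 ± 0.07), PLA2G4A, the phospholipase that releases arachidonic acid, differed by log2 3.12, and PTGS2, the inducible cyclooxygenase, stood at 12.7, 21.6 and 12 CPM against 2.8, 3.48 and 4.54. SLCO2A1, the prostaglandin transporter, was lower at log2 -2.50. Of 37 genes of sterol and fatty acid synthesis 22 were higher and 4 lower, but the median was 0.26. FADS1 and FADS2, the desaturases of long-chain fatty acids, had the largest differences there at log2 2.72 and log2 1.76. PDK4, which inhibits pyruvate dehydrogenase, stood at 260.1, 383 and 206 CPM against 24.8, 25.4 and 41.1, with a wide spread in ICM.

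The secreted factors linked with senescence were divided between the states. Of 32 cytokines and growth factors tested, 16 were higher and 7 lower in ICM, against 30.7% and 32.6% of all genes, with a median of 0.26. The median was 0.40 without old replicate 3. IL6 stood at 8.86, 13.9 and 9.84 CPM in ICM, 6.02, 7.41 and 6.58 in old and 16.4, 16 and 17.5 in young cells (log2 0.67 ± 0.15, edgeR adjusted p = 0.00058), so it was higher in ICM than in old cells and highest in young cells. CXCL8 gave 17, 18.2 and 16.4 CPM in ICM and 10, 13.6 and 27.7 in old cells, which overlapped, and young cells were at 1.86, 0.872 and 0.953. Old replicate 3 was the highest of its group for CXCL8 and also for CXCL3, at 0.645, 0.445 and 2.41 CPM, where ICM cells stood at 7.06, 11.9 and 8.82 (log2 3.00 ± 0.31). CXCL12, the ligand of CXCR4, was nearly absent from old cells at 0.538, 0.667 and 0.185 CPM, while ICM cells held 30, 34.3 and 26.9 and young cells 24.2, 23.9 and 21.7 (log2 5.96 ± 0.20, edgeR adjusted p = 6.4e-17). TNFAIP6, a hyaluronan-binding protein of inflammation, differed by log2 3.98, and KITLG, stem cell factor, by log2 1.79.

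Other cytokines were lower in ICM. IL32 stood at 1.65, 0.925 and 1.53 CPM against 50.6, 46.9 and 41.9 (log2 -5.05 ± 0.17, edgeR adjusted p = 7.6e-17), and PTX3, a soluble pattern-recognition protein, at 34.9, 34 and 35.2 against 232, 251 and 242 (log2 -2.80 ± 0.07). IL11, a fibroblast cytokine induced by TGF-beta, stood at 9.69, 12.4 and 7.55 CPM against 60.6, 56.1 and 72. For IL32 and PTX3, young cells were closer to old than to ICM cells, at 46.8, 36.9 and 33.2 and 175, 179 and 190.1 CPM. CCL2 gave 42.7, 48.3 and 46.3 CPM against 49.5, 52.6 and 47.3 and did not pass the test. None of 17 NF-kB genes and feedback inhibitors was higher and 11 were lower in ICM (median -0.39). With no filter, or with only the ICM and old libraries, 1 was called higher. The same held without ICM replicate 1, old replicate 3, young replicate 1 or young replicate 3. RELB, a subunit of NF-kB, was lower at log2 -1.28 and NFKBIZ, a nuclear regulator of it, at log2 -1.64. ICAM1, an adhesion molecule induced by NF-kB, stood at 5.41, 8.33 and 5.26 CPM in ICM, 46.9, 45.7 and 48.9 in old and 103, 85 and 86.2 in young cells, while NFKBIA, the inhibitor, differed by log2 -0.36.

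MMP3, stromelysin, stood at 163, 173 and 149 CPM in ICM against 3.66, 4.6 and 7.88 in old cells (log2 4.90 ± 0.13, edgeR adjusted p = 6e-19), MMP10 differed by log2 3.78, MMP1, the interstitial collagenase, by log2 1.40 and the lysosomal protease CTSL by log2 1.58. TIMP3, an inhibitor of matrix metalloproteases, was at 106, 115 and 104 CPM against 3304, 3231 and 3342 (log2 -4.93 ± 0.07). SERPINE2, an inhibitor of plasminogen activators, was lower at log2 -2.84, and so were the activators PLAU and PLAT, at log2 -1.50 and log2 -1.47. MMP14, which is anchored in the membrane, was lower at log2 -1.25. In all, 9 of 27 genes of the list were higher and 16 lower, with a median of -0.77. Of all tested genes 30.7% were higher and 32.6% lower, so the higher share of the list, 33.3%, was near the background.

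IGF2, an insulin-like growth factor, stood at 339, 281 and 354 CPM in old, 42.3, 47.8 and 46.2 in young and 6.38, 7.31 and 8.14 in ICM cells (log2 -5.48 ± 0.11, edgeR adjusted p = 2.2e-21). The binding protein IGFBP7 stood at 3385, 3579.5 and 3249 CPM in old and 278, 256 and 289 in ICM cells, and IGFBP3 at 3212, 3237 and 3163 against 469.8, 422 and 473. IGFBP3 in ICM cells was thus at the level of young cells, 441, 449.6 and 445 CPM. PDGFD, unlike PDGFB, was higher in ICM, at 133, 132 and 126 CPM against 5.7, 4.37 and 6.4. The receptors PDGFRA, PDGFRB, MET and FLT1 were lower at log2 -1.37, log2 -1.22, log2 -1.95 and log2 -4.88. FGFR1 was higher by log2 0.83. Of 27 growth factors, receptors and binding proteins 7 were higher and 19 lower (median -0.72). Of 16 tested peptide hormones 9 were lower and 4 higher (median -1.11), with EDN1, the vasoconstrictor endothelin, at 9.99, 10.5 and 10.8 CPM against 53.5, 63.5 and 59.3. ADM, the vasodilator adrenomedullin, was higher by log2 1.31, whereas its relative ADM2 was lower at log2 -4.20.

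**Figure D4:**
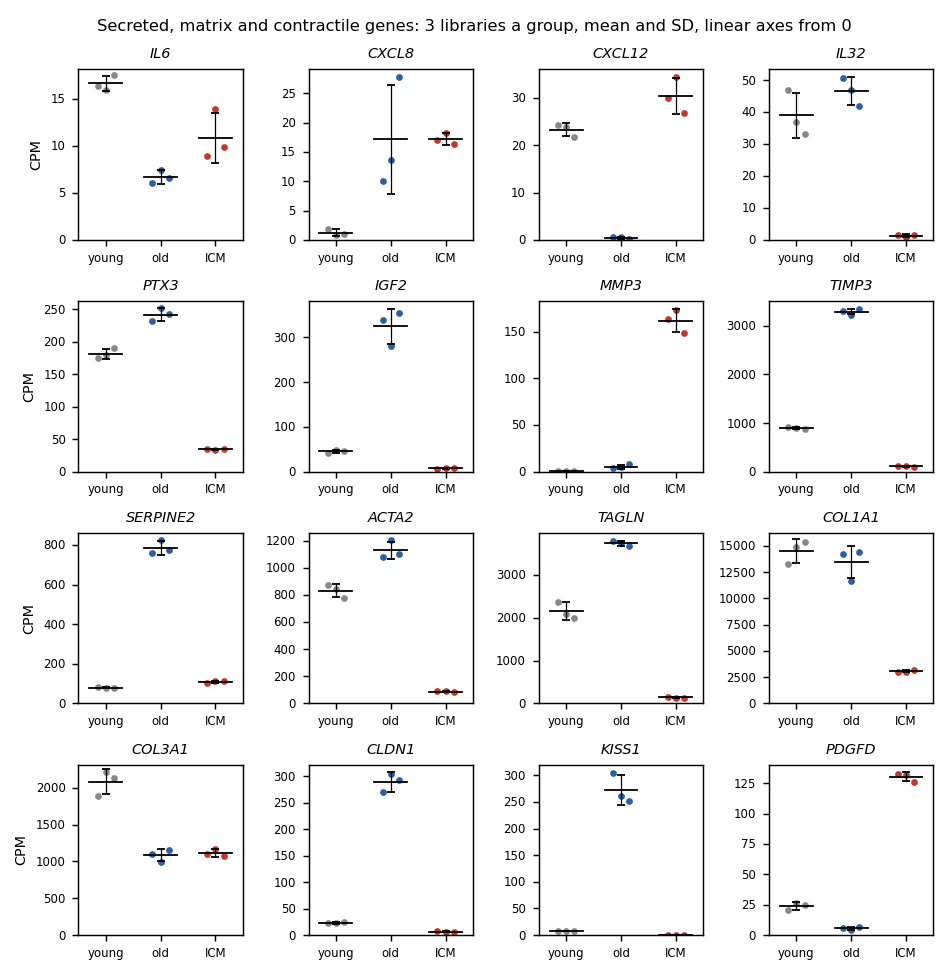
CPM of 16 secreted, matrix, junction and contractile genes in young, old and ICM libraries, with a point per library, the mean of 3 as a line, SD as error bars and linear axes from 0. CXCL12 is near 0 in old cells alone, IL32, TAGLN and ACTA2 are lowest in ICM, and the ICM and old values of CXCL8 and COL3A1 overlap.

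The contractile apparatus separated the states by level. Of 27 genes, 24 were lower and none higher in ICM (median -1.10). TAGLN, the actin-binding protein transgelin, stood at 145, 136 and 129 CPM in ICM, 3795, 3742 and 3666 in old and 2378, 2097 and 1992 in young cells (log2 -4.77 ± 0.08, edgeR adjusted p = 2.9e-22). ACTA2, smooth-muscle alpha-actin, stood at 87.7, 89.9 and 83.8 CPM against 1079, 1201 and 1102 (log2 -3.69 ± 0.07), ACTG2, gamma-actin of smooth muscle, at 65, 67.1 and 62 against 1105, 1135 and 1101 (log2 -4.11 ± 0.07), and the calponin CNN1 differed by log2 -2.67. Actin genes share long near-identical stretches, so each single actin value is uncertain. TPM1, a tropomyosin, was lower at log2 -2.40 and CALD1, caldesmon, at log2 -2.31. FLNC, TLN1 and MYH10, a filamin, talin and a non-muscle myosin, did not pass the test. All 6 smooth-muscle markers of the marker list, which overlaps this list, were lower, their sum being between 213 and 219 CPM in ICM and 1653 and 1698 in old cells. Whether other cells had a part in these values was not tested. SRF, the transcription factor of many of these genes, stood at 57.8, 63.6 and 62.9 CPM against 101, 92 and 108 (log2 -0.71 ± 0.07).

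Promoter windows of contractile genes are shown for the CArG box, the 10-base word to which SRF binds. Promoters were found for 24 of the 27 genes, and 6 of them (25%) held the word within 250 bases. It was in 1.14% of all 27305 promoters and in 1.06% of the 10739 promoters of tested genes. The list holds contractile genes by choice and SRF itself, so its share describes the members and not the difference between the states. It is in capitals in the windows (GRCh38.p14, RefSeq).
ACTG2, chr2:73892888-73892917, plus strand: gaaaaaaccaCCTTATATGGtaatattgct
MYLK, chr3:123620623-123620652, minus strand: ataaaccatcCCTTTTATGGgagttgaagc
CNN2, chr19:1026509-1026538, plus strand: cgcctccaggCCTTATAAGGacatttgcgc
SRF, chr6:43171229-43171258, plus strand: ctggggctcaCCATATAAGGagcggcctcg
ACTG2 has another match 73 bases before the start and SRF another 10 bases before it. In the same comparison ACTG2 differed by log2 -4.11, MYLK, the myosin light chain kinase, by log2 -1.91, CNN2 by log2 -0.97 and SRF by log2 -0.71.

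The matrix was lower in ICM, but not for every fibrillar collagen. Of 34 collagens and collagen-processing genes, 23 were lower and 5 higher (median -0.998). COL1A1 stood at 3028, 2962 and 3201 CPM in ICM and 14211, 11674 and 14438 in old cells (log2 -2.13 ± 0.08, edgeR adjusted p = 5.5e-16) and had the largest deficit of CPM in ICM of all genes. COL1A2, its partner in type I collagen, differed by log2 -0.92, at 4113, 4257 and 4072 CPM against 8034, 7491 and 8052. COL3A1, the chain of type III collagen, gave 1094, 1174 and 1067 CPM in ICM and 1101, 991 and 1153 in old cells and did not pass the test (log2 0.04 ± 0.07, edgeR adjusted p = 0.66). COL4A1 of basement membranes was lower at log2 -2.22, and COL11A1, a minor fibrillar chain, by log2 -5.25. COL12A1 and COL14A1, which coat fibrils, were higher by log2 0.77 and log2 1.59. Summed over the list, collagens and their enzymes held between 18450 and 19120 CPM in ICM and between 38320 and 44400 in old cells.

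Among other matrix proteins 23 of 34 were lower and 4 higher (median -0.94). SPARC, a collagen-binding glycoprotein, stood at 1956, 1935 and 1908 CPM against 6878, 7023 and 6357, FN1, fibronectin, differed by log2 -1.39, THBS1 by log2 -2.29 and VCAN, versican, by log2 -3.56. MFAP5, a protein of microfibrils, was lower at log2 -4.69. POSTN, periostin, was higher in ICM than in old cells at 79.9, 82.4 and 79.6 CPM against 8.6, 8.6 and 8.34 (log2 3.24 ± 0.09), although young cells held 452, 478 and 504. Adhesion and junction genes were lower for 25 of 33 and higher for 6 (median -1.05). CLDN1, a claudin of tight junctions, stood at 269, 305 and 293 CPM in old, 22.3, 22.2 and 25.1 in young and 7.51, 5.64 and 6.44 in ICM cells (log2 -5.46 ± 0.09, edgeR adjusted p = 3.2e-22). The integrin chains ITGA6, ITGA3 and ITGB1 were lower at log2 -3.09, log2 -2.86 and log2 -1.12, while ITGAV did not pass the test. The cadherins CDH6 and CDH11 were higher by log2 0.97 and log2 0.66.

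Of 35 genes of TGF-beta, activin and BMP signalling 12 were higher and 17 lower (median -0.12), where the background shares were 30.7% and 32.6%, so the higher share was near the background. INHBA, the activin A subunit, stood at 17.2, 20.7 and 17 CPM against 117, 119.6 and 135 (log2 -2.76 ± 0.09), TGFB2 differed by log2 -1.56, GDF6 by log2 -2.63 and TGFBR2 by log2 -1.39. TGFBR1 was higher by log2 1.24, and ID2, a target of BMPs, stood at 98.4, 88.6 and 106 CPM against 14.8, 17.9 and 15.1. NOG, the BMP antagonist noggin, was lower at log2 -2.57. Of 25 YAP-pathway genes 14 were lower and 1 higher (median -0.27). ANKRD1, a YAP target of muscle and stressed cells, stood at 218, 255 and 222 CPM in old, 11.9, 11.4 and 9.44 in young and 2.4, 3.05 and 2.71 in ICM cells, whereas the YAP targets CCN1 and AMOTL2 did not pass the test and CCN2 differed by log2 -0.35. WNT16, a WNT ligand, stood at 64.1, 68.1 and 63.9 CPM in old cells against 5.03, 4.35 and 4.83, WNT5B differed by log2 -2.69 and DKK2, a WNT antagonist, by log2 -4.97. The WNT receptors ROR1 and ROR2 were higher by log2 0.95 and log2 1.36. Of 26 WNT genes 13 were lower and 6 higher (median -0.42). Of 13 NOTCH genes 7 were lower and 2 higher (median -0.45), with the ligand JAG1 higher by log2 1.11 and JAG2 lower at log2 -1.98.

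Of 33 interferon-stimulated genes 18 were lower and 7 higher (median -0.29), against 32.6% and 30.7% of all tested genes. IFI6 stood at 31.4, 36.8 and 30 CPM against 101, 103 and 131. IFI44L, an interferon-induced gene, was higher by log2 3.65, and OAS3, a sensor enzyme of double-stranded RNA, lower at log2 -2.26. Of 26 genes of antigen presentation and complement 16 were lower and 8 higher (median -0.37), so the higher share, 30.8%, was that of the background. HLA-B and HLA-C were lower at log2 -1.56 and log2 -1.03, the light chain of class I molecules, B2M, at log2 -0.77 and the complement inhibitor CD59 at log2 -1.60. HLA genes are close copies of each other and uncertain as single genes. Among the higher members, CLU, clusterin, stood at 2064, 2141 and 2061 CPM against 439, 457 and 439 (log2 2.23 ± 0.06, edgeR adjusted p = 1.4e-18), and the protease C1R was higher by log2 1.15.

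Housekeeping lists differed little in median. The 61 ribosomal protein genes had a median of -0.24, with 39 lower and 2 higher, and none beyond 2-fold. Without old replicate 2 the median was -0.15 with 28 lower, and without old replicate 3 it was -0.30 with 51 lower and 0 higher. Nucleolar genes had a median of 0.09, glycolysis 0.16, lipid storage and oxidation 0.05 and lysosome genes 0.04. Leaving out a library moved the medians of 3 of these lists by over 1.5 times: glycolysis to 0.10 without old replicate 3, lipid storage to between 0.02 and 0.08, and lysosome genes to between 0.02 and 0.10. GAPDH, often used as a reference, stood at 10431, 11182 and 9567 CPM in ICM and 7065, 7615 and 6406 in old cells (log2 0.56 ± 0.07), and LDHB, a lactate dehydrogenase subunit, was higher by log2 1.05. SLC16A3, the lactate exporter, was lower at log2 -1.36. GLB1, the lysosomal beta-galactosidase, gave 112, 121 and 109 CPM in ICM and 119, 113 and 105 in old cells and did not pass the test, with young cells at 66.6, 66.4 and 66.2. Of 39 lysosome genes 19 were higher and 12 lower, against 30.7% and 32.6% of all tested genes. The lower share, 30.8%, was thus near the background. TFEB, a transcription factor of lysosome genes, was lower at log2 -1.72. GLA, alpha-galactosidase, was higher by log2 2.21 and NPC1, which exports cholesterol from lysosomes, by log2 1.21. In the hypoxia list 11 of 21 genes were higher and 6 lower (median 0.21), and the lower share, 28.6%, was near the background. CA12, a carbonic anhydrase, was higher by log2 2.37. HIF1A and EPAS1, the oxygen-sensitive subunits, were lower at log2 -0.94 and log2 -0.98. In the list of ATF4 and the unfolded protein response 17 of 30 were lower and 11 higher (median -0.23). The higher share there, 36.7%, was not far from the 30.7% of all tested genes. ASNS, asparagine synthetase, was lower at log2 -1.35 and ATF3 higher by log2 2.06. In the immediate-early list 15 of 31 were lower and 7 higher (median -0.31). Without old replicate 3, 12 were lower and the median was -0.15, and without old replicate 2, 20 were lower. EGR1, a zinc-finger factor induced by serum, was lower at log2 -1.97 and JUNB, a subunit of AP-1, at log2 -1.41, whereas DUSP5, a phosphatase of ERK, was higher by log2 1.56.

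**Figure D5:**
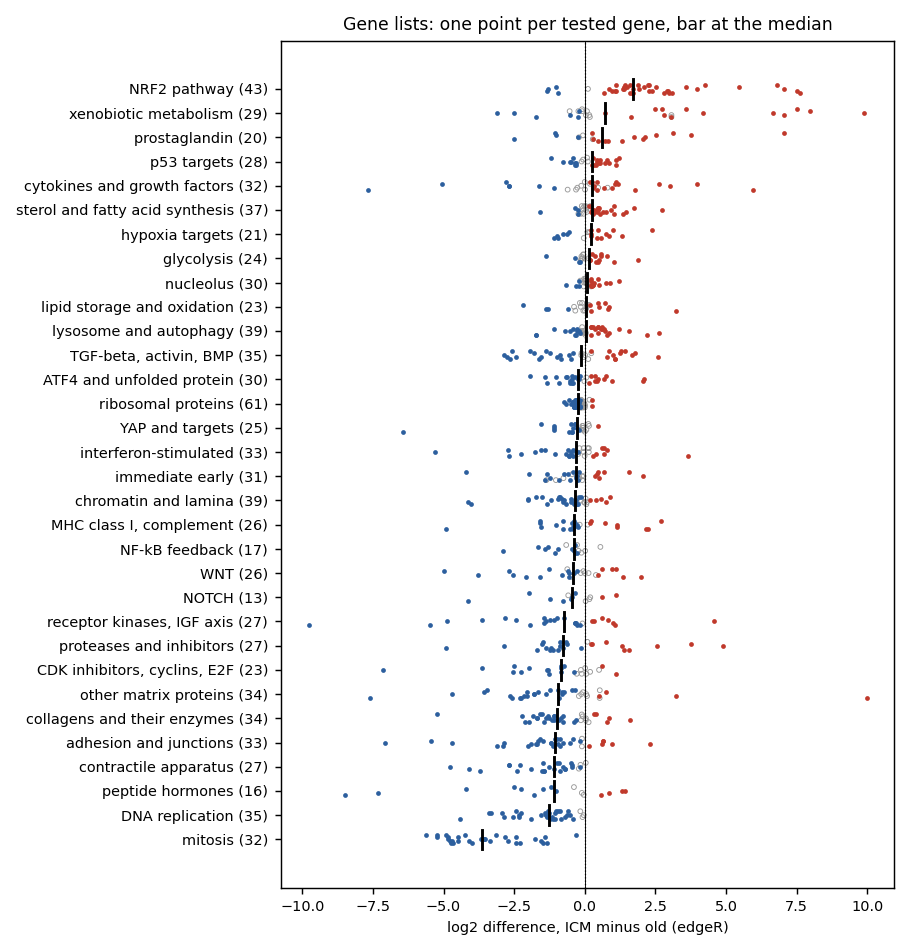
Log2 difference between ICM and old cells (x axis) for every tested gene of 32 lists, ordered by the list's median (black bar), with the number of genes in brackets; red and blue points passed the edgeR test as higher or lower in ICM, open points did not, and the dotted line is the median of all genes. The NRF2 pathway has the highest median and mitosis the lowest, and the other 30 medians lie between -1.26 and 0.70.

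Young cells show on which side each difference lay. Of the 963 genes over 2-fold higher in ICM than in old cells, the mean of young cells was between the groups for 534, below both for 291 and above both for 138. Of the 1179 over 2-fold lower in ICM, young cells lay between for 543, above both for 421 and below both for 215. These counts describe group means. SERPINE2, for example, stood at 80.5, 79.1 and 77.3 CPM in young, 104, 111 and 114 in ICM and 759, 824 and 772 in old cells.

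Ribosome footprints of the same groups, reads of mRNA protected by ribosomes, were looked up for the named genes and given no test because the ICM footprint libraries held only between 46239 and 225041 reads in coding sequence. Of 666 genes called over 2-fold different in mRNA with at least 50 footprint reads, 609 (91.4%) had a mean footprint level that differed in the same direction. Those 50 reads were summed over ICM and old libraries, so a gene could pass by its higher group alone. The share over all tested genes was not computed, so the 91.4% carries no conclusion on how far footprints followed mRNA. Old footprint replicates 1, 2 and 3 held 1672807, 54708 and 583798 reads in coding sequence, so the old footprint means rest on unequal libraries. Replicates 1 and 3 were deeper than any ICM library, so genes high in old cells passed the 50 reads more easily. Mean footprint levels in ICM and old cells were 6114 against 1284 CPM for SQSTM1 and 1671 against 697 for CDKN1A. AKR1C1 footprints stood at 2302, 2192 and 1603 CPM in ICM and 31.1, 293 and 22.3 in old cells, where the shallow old replicate 2 set most of the mean. They were 523 against 5966 for TAGLN and 218 against 2485 for TIMP3. KISS1 had a mean of 15.9 footprint CPM in ICM cells and 516 in old cells. The ICM value rests on 3 reads and the old value on 1257 reads of deeper libraries, so the size of the KISS1 ratio is uncertain. For FTL and FTH1 they were 1712 against 760 and 603 against 260 CPM, a smaller ratio than that of their mRNA. SPP1, with 112 footprint reads in ICM and 10 in old cells, stood at 267 against 9.39 CPM. HMGB2 had 3 footprint reads in ICM cells and is not compared.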

How the data were processed

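RNA from 3 young, 3 old and 3 ICM cultures of IMR90 was sequenced after poly(A) selection. Per the study's methods, cells were lysed in polysome buffer with cycloheximide and part of the lysate was used for mRNA-seq, whereas the labels name Trizol. The authors deposited, for each library, estimated counts per gene symbol and feature class, which are mostly whole and not normalised. The submitters' processing notes list STAR 2.6.0c, featureCounts and DESeq2 in no order. The counter, the annotation, strandedness and the placing of multiply mapped reads are not given in the sources used here, so no gene coordinates are given from the tables. The design text counts other numbers of samples than the 3 per group of the labels.

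Counts of 5′ UTR, CDS and 3′ UTR were summed per gene and rounded. All 9 libraries were fitted with edgeR 4.0.16 (R 4.3.3) after its expression filter and TMM scaling, by the quasi-likelihood test with contrast ICM minus old, with Benjamini-Hochberg adjustment over 13173 genes and a threshold of 0.05. The fit was tested on simulated data: of 200 genes changed 2-fold, 94% were recovered with 15 false calls among 12985 genes. The simulation changed far fewer genes than the 8338 called here, so it cannot show how the fit behaves under so broad a difference. CPM used the scaled library sizes. A gene without reads in a group was bounded by 3 counts over that group, and ratios with 1 to 3 reads carry exact 95% intervals, both for counting error only. Same-numbered ICM and old libraries did not deviate together (r = -0.026, -0.020 and 0.032), and the main fit has no block. P-values measure the spread between cultures of a single cell line. Promoters came from the RefSeq table of GRCh38.p14, where 10739 tested genes matched, 10384 by their current symbol.

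The members and gene lists were chosen with earlier results of these data known. Named genes were the 12 largest differences in each direction among called genes with at least 5 CPM in the higher group and no overlap of libraries, the 6 largest in CPM, up to 3 in each direction per list, and CDKN1A, CDKN2A, CDKN2B, HMGB1, HMGB2, LMNB1 and CTCF. Some genes that the rule names are not reported here. For non-coding RNA the 5 largest in each direction were taken. Alternatives were another scaling (RLE), other filters, DESeq2 1.42.0, fewer libraries, coding reads alone, thinning, a replicate block and stricter thresholds. Columns of the Ribo-seq tables served only for footprint levels.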

Additional observations from a re-analysis of the deposited data

Results flagged for a closer look

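The tables also count reads in non-coding RNA, pseudogene and LINC classes, which the comparison of mRNAs did not use. The non-coding RNA and LINC classes, summed per gene, were looked at because they lie outside it. The pseudogene class was not tested. Of 1662 genes of these summed classes tested with edgeR in the same way, 371 were higher (22.3%) and 356 lower (21.4%) in ICM than in old cells. LINC00968 stood at 23.7, 28.6 and 21.7 CPM in ICM and 0.753, 0.667 and 0.742 in old cells (log2 5.08 ± 0.18, edgeR adjusted p = 5.2e-14), and LYPLAL1-DT, a divergent transcript of LYPLAL1, differed by log2 4.19. IGFBP7-AS1 and ACTA2-AS1 were lower at log2 -3.72 and log2 -3.31, like IGFBP7 and ACTA2. Since strandedness is not given in the sources used here, reads of these antisense genes and of their sense partners cannot be told apart.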

How the results depend on the processing

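Between 7153 and 8775 genes were called with RLE scaling, no filter, a mean of at least 50 counts, DESeq2, only ICM and old libraries, coding reads only or libraries thinned to the shallowest, against 8338. Leaving out a replicate gave 7664 to 8459 calls, and for non-coding RNA 672 to 798 against 727. The replicate block gave 8398 calls and kept the call of all 193 named genes. The labels do not say whether a replicate number marks a shared day or batch. Calls came to 3706 (1767 higher, 1939 lower) at an adjusted p under 0.01 and a log2 change over 0.6, and to 2142 (963 and 1179) at 0.05 and over 1. For non-coding RNA, a mean of at least 50 counts left 294 calls, since fewer genes were tested, and DESeq2 made 516. Of the named genes, RPS27 changed sign with coding reads only (log2 -0.012, from 0.25), and 7 lost or changed their call other than by threshold (MSMO1, SREBF1, PGAM1, RPS27, NOP58 and CTCF among them). The sign of the median was kept by all 32 lists except lipid storage with coding reads only (-0.02, from 0.05). What moved these values was not tested.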

Other observations

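Genes outside the lists also separated the states, and those given here were chosen after their values were seen. ENPP2, the autotaxin that makes lysophosphatidic acid, stood at 21.2, 20 and 20.5 CPM in ICM and 0.323, 0.148 and 0.278 in old cells (log2 6.37 ± 0.21, edgeR adjusted p = 2.4e-17). KYNU, kynureninase of tryptophan breakdown, stood at 149.8, 158 and 147 CPM against 5.38, 6.67 and 6.4. SLIT2, a secreted guidance protein, was higher by log2 4.19 and MAP2, a microtubule-binding protein known from neurons, by log2 4.24. In each of these genes the ICM libraries lay above the old libraries.

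In the other direction, ESM1, a secreted proteoglycan, stood at 13.9, 17.4 and 17.1 CPM in old and 0.0751, 0.185 and 0.254 in ICM cells. OXTR, the oxytocin receptor, stood at 48.5, 47.2 and 44.9 CPM against 0.751, 0.925 and 1.02 (log2 -5.70 ± 0.14, edgeR adjusted p = 2e-19), with 26.2, 28.3 and 30.8 in young cells. TGM2, a transglutaminase that cross-links matrix proteins, was lower at log2 -3.93, and TNFSF4, a ligand of the tumour necrosis factor family, at log2 -4.28. HBB, beta-globin, stood at 5.27, 7.04 and 4.36 CPM in old, 0.225, 0.185 and 0 in ICM and 2.48, 2.35 and 2.48 in young cells, and HBD, delta-globin, at 16.8, 22 and 14.3, 0.451, 0.37 and 0.17 and 8.69, 6.19 and 5.91. Globin genes are near copies and uncertain as single genes.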
